A study of Mus musculus with 6 samples.

Results

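The genes of oxidative phosphorylation were described across the immune cells of the ventral midbrain of Line 61 mice. Members were the rows of the gene tables whose symbol begins with mt-, Ndufa, Ndufb, Ndufc, Ndufs, Ndufv, Cox4, Cox5, Cox6, Cox7, Cox8, Uqcr or Atp5, without the assembly factors named Ndufaf and without pseudogenes marked -ps. The rule found 94 of 32285 genes, of which 81 lie in the nuclear genome and 13 in the mitochondrial genome. By the complex that the symbol names, the nuclear members were 38 of complex I, 8 of complex III, 18 of complex IV and 17 of complex V, and the mitochondrial members were 7, 1, 3 and 2. Ndufa4 is counted with complex I by its symbol, although its protein is now held to be a subunit of complex IV. The rule uses symbols and no expression value, although it was set with earlier results of these data known, and every member had at least 1 UMI (unique molecular identifier, the count of 1 captured RNA molecule) in a kept cell.

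Oxidative phosphorylation is the mitochondrial route to ATP. Complex I (NADH dehydrogenase), complex III (cytochrome bc1) and complex IV (cytochrome c oxidase) pass electrons to oxygen and pump protons across the inner membrane, and complex V (ATP synthase) uses that gradient. Complexes I, III, IV and V are mosaics in which the mitochondrial DNA encodes a core of membrane proteins and nuclear genes encode the rest, so their assembly needs transcripts from both genomes. In microglia and macrophages the balance of oxidative phosphorylation and glycolysis is known to change with activation, and lymphocytes at rest rely largely on mitochondrial ATP.

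Line 61 mice carry human wild-type α-Syn under the Thy1 promoter, which drives the transgene in neurons, and all 4 groups were male mice of this line. PBS, monomeric α-Syn (Monomer) or human α-Syn preformed fibrils (PFF) were injected into the striatum on both sides at 12 to 15 weeks of age, and brains were taken 6 weeks later. PFF mice received vehicle (VH, the DMSO carrier) or the JAK1/2 inhibitor AZD1480 at 25 mg/kg by daily oral gavage from week 2, and no group of injected wild-type mice was included. Live CD45+ cells from 3 to 5 pooled midbrains per sample were captured for single-cell RNA-seq by 3' end chemistry. The deposited data hold 1 mRNA library per group, so library and condition cannot be told apart, and the PBS and Monomer libraries carry no replicate label. Cells of the PFF + VH and PFF + AZD1480 libraries carried 4 and 5 hashtag antibodies, and each hashtag was taken as 1 replicate sample, an assumption that matches the number of samples in the design but is not stated in the labels.

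The 4 libraries held 13813 to 34828 barcodes and 99658216 to 116440449 UMIs, and 13021 to 34436 cells remained after filters of 500 to 15000 UMIs, 250 to 5000 genes and at most 10% mt- UMIs. The last filter acts on members and removed 48 to 104 cells per library. The PFF + VH library stood apart: its kept cells had a median of 2306 UMIs, against 6616 to 7028 in the other 3. Pairs of libraries shared 45 to 151 barcodes. Cell classes were set by marker UMIs as microglia (MG), border-associated macrophages (BAM), monocytes (Mono), dendritic cells (DC), T, NK and B cells and neutrophils (Neu). MG made up 11353 to 30689 cells per library, 977 to 3265 cells had no class, and 11 to 24 cells carried markers of cells that are not immune. No doublet caller was run, and in the hashtag comparisons cells with several hashtags (11.6% of kept PFF + VH and 12.6% of kept PFF + AZD1480 cells) and cells with no hashtag (35.4% and 6.5%) were left out. The 12 MG markers summed to 18867 to 22158 CPM (UMIs per 1000000 UMIs of the cells summed) in MG and to 649 to 8497 CPM in the other classes, highest in Neu of the PFF + VH library.

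Promoter windows of GRCm38.p6, from 250 bases before to 50 after the RefSeq start, were matched for 65 of the 81 nuclear members (70 windows). Of these, 4 are printed because they belong to isoform groups of complex IV whose levels in these cells lie far apart. Cox6b1 and Cox7a2 encode the forms used in most tissues, and Cox6b2 (testis) and Cox7a1 (heart and skeletal muscle) encode tissue-restricted forms. Capitals mark a CCAAT box on either strand (CCAAT or ATTGG) or, in Cox6b1, the ETS-type motif CCGGAAG on the other strand (CTTCCGG).
Cox6b1 (chr7:30626065-30626364, minus strand): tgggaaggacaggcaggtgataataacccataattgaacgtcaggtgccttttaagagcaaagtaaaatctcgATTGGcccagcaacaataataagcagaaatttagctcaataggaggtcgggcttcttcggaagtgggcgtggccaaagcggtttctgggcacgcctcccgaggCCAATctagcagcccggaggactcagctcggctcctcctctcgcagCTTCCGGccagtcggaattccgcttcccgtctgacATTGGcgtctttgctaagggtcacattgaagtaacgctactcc
Cox6b2 (chr7:4753045-4753344, minus strand): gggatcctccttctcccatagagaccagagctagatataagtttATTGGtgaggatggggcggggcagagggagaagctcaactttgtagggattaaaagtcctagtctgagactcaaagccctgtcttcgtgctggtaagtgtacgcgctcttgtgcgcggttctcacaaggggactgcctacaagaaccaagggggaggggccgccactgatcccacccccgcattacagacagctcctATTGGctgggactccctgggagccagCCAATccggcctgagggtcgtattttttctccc
Cox7a2 (chr9:79759804-79760103, minus strand): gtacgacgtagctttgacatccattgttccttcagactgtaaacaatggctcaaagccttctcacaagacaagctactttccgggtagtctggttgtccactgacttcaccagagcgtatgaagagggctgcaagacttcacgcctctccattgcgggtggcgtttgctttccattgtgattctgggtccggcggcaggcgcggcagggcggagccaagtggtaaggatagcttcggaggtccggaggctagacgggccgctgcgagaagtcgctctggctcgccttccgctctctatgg
Cox7a1 (chr7:30183921-30184220, plus strand): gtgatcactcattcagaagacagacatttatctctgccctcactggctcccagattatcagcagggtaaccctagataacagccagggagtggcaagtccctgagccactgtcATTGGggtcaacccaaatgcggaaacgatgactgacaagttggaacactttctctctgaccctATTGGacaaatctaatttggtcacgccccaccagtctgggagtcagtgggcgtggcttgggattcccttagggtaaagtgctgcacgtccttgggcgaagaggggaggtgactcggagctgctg
The Cox6b1 window holds 1 ETS-type motif and 3 CCAAT boxes, the Cox6b2 window 3 CCAAT boxes, the Cox7a1 window 2 CCAAT boxes, and the Cox7a2 window none of the 4 motifs searched. Of the 70 member windows, 21.4% held CCGGAAG on either strand, against 8.86% of 32851 promoter windows of the same length. For the NRF1 motif GCATGCGC the shares were 12.9% and 2.71%, and for the YY1 motif AAGATGGCG 10.0% and 1.4%. CCAAT boxes were in 41.4% of member windows and 37.4% of all windows. These matches are letters in a window and not evidence of binding.

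In MG, both parts of the system were abundant. The 81 nuclear members together took 6813.5 CPM in the PBS library and 6769 in the Monomer library, against 8433 in PFF + VH MG and 7004 after AZD1480, and the 13 mt- members took 10103, 10176, 12768 and 10502 CPM in that order. The PFF + VH library was thus the highest on both sums. The ratio of mt- to nuclear UMIs hardly moved, from 1.483 to 1.514. The nuclear members with the most UMIs were Cox4i1, the largest nuclear subunit of complex IV, at 452 CPM (mean of 4 libraries), Cox8a at 248, Atp5g2, a c-ring subunit of ATP synthase, at 243, Cox7a2l at 239 and Cox7c at 205. Of the mt- genes, mt-Co3 stood at 2016 CPM and mt-Co1, the catalytic subunit of complex IV, at 1568, whereas mt-Nd4l stood at 95.5, mt-Atp8 at 30.9 and mt-Nd6 at 22.9. CPM counts 3' ends and is not divided by length. mt-Atp8 overlaps mt-Atp6, and mt-Nd4l overlaps mt-Nd4, on the same strand, so reads of these neighbours may not be separated. The level of 6 nuclear members lay under 1 CPM in MG: Cox4i2, Cox7a1, Cox7b2, Cox8b, Cox8c and Ndufa4l2.

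Between cell classes the nuclear and mt- members did not follow the same order. The nuclear sum ran from 6262 to 8678 CPM in Neu, over 6769 to 8433 in MG and 9286 to 10206 in BAM, to 12864 to 14611 in T, 13686 to 15759 in NK and 12620 to 17464 in Mono (lowest and highest of 4 libraries). B cells lay between, at 9781 to 13766 CPM, and DC stood at 11989 and 12481 in the 2 libraries with at least 10 such cells. The ranges of Neu and MG overlapped, as did those of T, NK, Mono and B, whereas BAM, T, NK, Mono, B and DC lay above every MG library. The mt- sum reached highest in B cells (20453 to 27029 CPM). Their range overlapped that of T (17548 to 23953), and in PFF + VH T lay above B (23953 against 23175). NK (16036 to 18486) and BAM (15087 to 16316) followed, where NK overlapped both T and BAM. Mono (11340 to 14730) and MG (10103 to 12768) overlapped, and Neu held the lowest range (3431 to 7601). DC stood above MG in PBS (11098 against 10103) and below it in Monomer (6526 against 10176). The sums of 2 DC in PFF + VH (16722) and of 6 DC in PFF + AZD1480 (12664) also lay above MG of the same library. Mono therefore had a high nuclear and a modest mt- level: the ratio of mt- to nuclear UMIs was 0.779 to 1.102 in Mono and 1.683 to 2.475 in B cells, with no overlap, against 1.483 to 1.514 in MG. Cytosolic ribosomal protein genes moved with these classes, at 61572 to 80984 CPM in MG and 156570 to 180770 in Mono, and their part in the result was not tested.

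**Figure D1:**
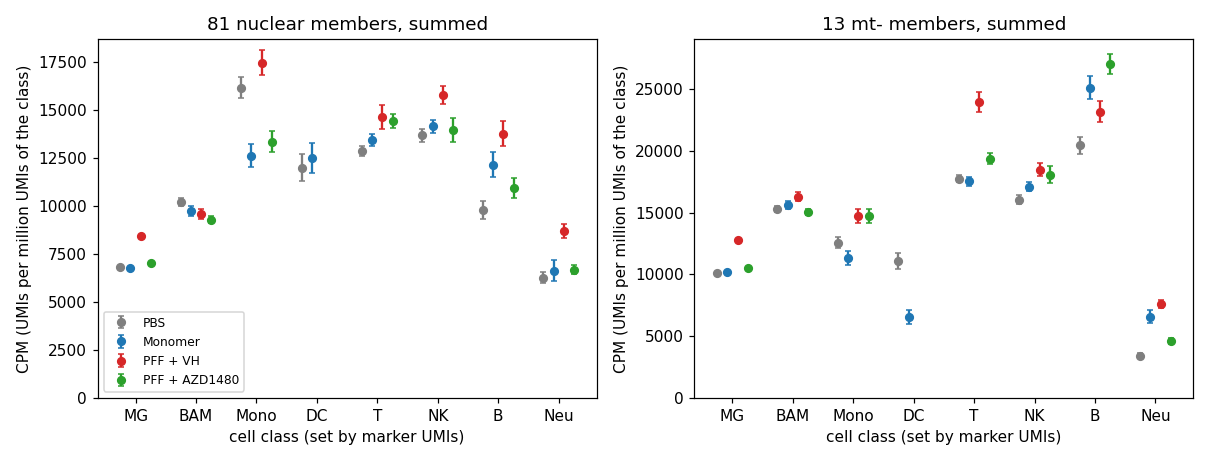
Summed CPM of the 81 nuclear members (left) and of the 13 mt- members (right) by cell class. Each point is 1 library with at least 10 cells of the class, and bars are 95% Poisson intervals, which cover counting error only. Neu reach lowest on the mt- axis, at 3431 to 7601 CPM, and B cells reach highest, at 20453 to 27029, with T overlapping B.

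Each class was compared with MG of the same libraries by edgeR's quasi-likelihood test, with library as a block, so p-values measure the spread over 4 libraries that are also the 4 conditions. All classes share the MG sums as reference. Background shares are those of these main fits, and counts under other settings are given without one. In these fits 74 nuclear members and all 13 mt- members passed the filter on low counts. The 7 nuclear members left out were of low count: Cox4i2, Cox6b2, Cox7a1, Cox7b2, Cox8b, Cox8c and Ndufa4l2.

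Monocytes were higher for the nuclear genome above all. Of 74 nuclear members, 60 were higher than in MG and 0 lower (background of all 7982 genes tested: 22.5% higher, 25.1% lower), with a median log2 fold change of 0.89 against -0.14 over all genes. All 17 members of complex V were higher. The largest changes were those of Uqcrfs1, the Rieske iron-sulphur protein of complex III (log2 fold change 1.60 ± 0.21 (SE), adjusted p 2.1e-07), of the ATP synthase subunits Atp5l (1.52), Atp5h (1.43) and Atp5e (1.34), and of Cox5a (1.51), a subunit of complex IV. Cox5a stood at 181 to 460 CPM in the 4 Mono sums and at 88.6 to 110 in MG, without overlap. Among mt- members 2 of 13 were higher, mt-Co1 (0.60) and mt-Co2 (0.44), and the median was 0.20. Each Mono sum rested on 17 to 38 cells.

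T cells were higher for both genomes. Of the nuclear members 60 were higher and 2 lower (background 26.6% higher, 32.0% lower), with a median of 0.84 against -0.10 over all genes, and 8 mt- members were higher and 0 lower, with a median of 0.73. Complex V was again higher in all 17 members, and complex I in 28 of 37. Cox5a led (1.51 ± 0.20, adjusted p 1.24e-07), followed by Atp5h (1.48), Cox6c (1.39), Atp5e (1.35) and Cox7b (1.29). Atp5h stood at 476 to 507 CPM in T and at 156 to 187 in MG, each library of T above each of MG. The mt- genes that rose most were mt-Co1 (1.09 ± 0.18), mt-Atp6 (0.97), mt-Nd6 (0.96) and mt-Atp8 (0.94), whereas mt-Nd1 (0.10), mt-Nd3 (0.11), mt-Nd4 (0.25), mt-Nd2 (0.29) and mt-Nd4l (0.34), all of complex I, did not pass the test. Lower in T were Ndufc2, a membrane-arm subunit of complex I (-0.62 ± 0.20, adjusted p 0.01, with 77.2 to 102 CPM against 122.5 to 149 in MG), and Cox6a2 (adjusted p 0.00458). Cox6a2 had 3 UMIs in all T cells, and its level was 0.125 times that of MG (95% counting interval 0.0257 to 0.365). On sums by hashtag 30 members were called in T in place of 70.

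NK cells had 51 nuclear members higher and 1 lower (background 24.4% and 30.2%; median 0.73 against -0.11 over all genes) and 7 mt- members higher and 0 lower (median 0.47). Cox5a (1.48 ± 0.20), Atp5h (1.33), Cox6c (1.30), Cox7b (1.29) and Atp5e (1.24) were the largest, and Ndufc2 fell by 0.88 on the log2 scale. B cells had 36 higher and 0 lower (background 19.3% and 24.6%; median 0.55 against -0.15) and 11 mt- members higher and 0 lower (median 0.73). Their leading nuclear members were Atp5md (1.36 ± 0.23), Ndufa6 (1.20), Atp5e (1.07), Uqcrh (1.00), the hinge protein of complex III, and Ndufb11 (0.98). mt-Co1 rose by 1.33 ± 0.18 in B cells (adjusted p 3.9e-07), to 3424 to 5323 CPM against 1392 to 1953 in MG, and mt-Atp8 (1.28), mt-Co3 (1.20), mt-Co2 (1.19) and mt-Atp6 (1.14) followed. The B cell sums held 25 to 48 cells. The 47 called members dropped to 29 in cells of 2000 to 6000 UMIs, to 20 with no filter on low counts and to 10 on sums by hashtag, where the PBS and Monomer libraries do not enter.

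BAM are the resident macrophages of the brain's borders. Of their nuclear members 36 were higher and 1 lower (background 16.2% and 17.3%; median 0.43 against -0.05), and of the mt- members 6 were higher and 0 lower (median 0.55). Ndufa7 (0.88 ± 0.17, adjusted p 0.000134), Cox5a (0.79), Ndufb10 (0.78), Uqcr10 (0.78) and Ndufb7 (0.74) were the largest, and Cox6a2 fell by 1.73 ± 0.55. The total of called members dropped from 43 to 21 without the Monomer library, to 18 in cells of 2000 to 6000 UMIs, to 22 with no filter on low counts and to 23 on sums by hashtag. The MG markers stood at 3468 to 4580 CPM in BAM, against 18867 or more in MG, and the part of MG RNA in the BAM values was not tested. DC were fitted on the PBS and Monomer libraries alone, with 10 cells in each. They had 26 nuclear members higher and 0 lower (background 10.9% and 14.2%; median 0.71 against -0.38), led by Ndufa6 (1.64 ± 0.27), Atp5l (1.51), Atp5e (1.36), Cox5a (1.35) and Cox7b (1.33). In the mt- genome 0 members were higher and 4 were lower: mt-Nd4 (-1.0), mt-Nd2 (-0.93), mt-Nd1 (-0.83) and mt-Cytb (-0.75). The median of the mt- members was -0.63, against -0.38 over all genes. By CPM the mt- sum of DC lay below MG in Monomer only (6526 against 10176), and above it in PBS (11098 against 10103), the other library fitted. With no filter on low counts 11 members were called in DC in place of 30.

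In Neu nuclear members moved both ways, and 7 mt- members fell. Of the nuclear members 23 were higher and 12 lower (background 21.3% and 32.4%; median 0.15 against -0.42 over all genes), and of the mt- members 0 were higher and 7 lower (median -0.63). Complex I had 8 members higher and 9 lower of 37 (21.6% and 24.3%, near and below the shares of all genes), and complex IV had 7 higher and 0 lower of 12 (58.3% and 0%). Ndufb7 (1.65 ± 0.21, adjusted p 1.47e-07), Atp5l (1.35), Ndufb9 (1.10), Cox5b (1.08) and Ndufb11 (1.01) rose, of which the Ndufb genes encode accessory subunits of the complex I membrane arm. Ndufb7 stood at 144 to 215 CPM in Neu and at 67.7 to 89.3 in MG. Lower were Ndufa9 (-1.77 ± 0.33, adjusted p 4.56e-05), Ndufs8 (-1.32), Ndufc2 (-1.08), Ndufs3 (-1.07) and Ndufab1 (-1.02), of which Ndufs3 and Ndufs8 encode core subunits of its peripheral arm and Ndufab1 the mitochondrial acyl carrier protein. The mt- genes that fell most were mt-Nd1 (-1.24 ± 0.22), mt-Nd2 (-1.0), mt-Cytb (-0.99), mt-Co3 (-0.86) and mt-Nd4 (-0.84). In cells of 2000 to 6000 UMIs the nuclear split turned to 9 higher and 20 lower. Without the PFF + AZD1480 library 26 members were called in place of 42, on sums by hashtag 23, and without the PFF + VH library, in which MG markers reached 8497 CPM in Neu, 44 were called.

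**Figure D2:**
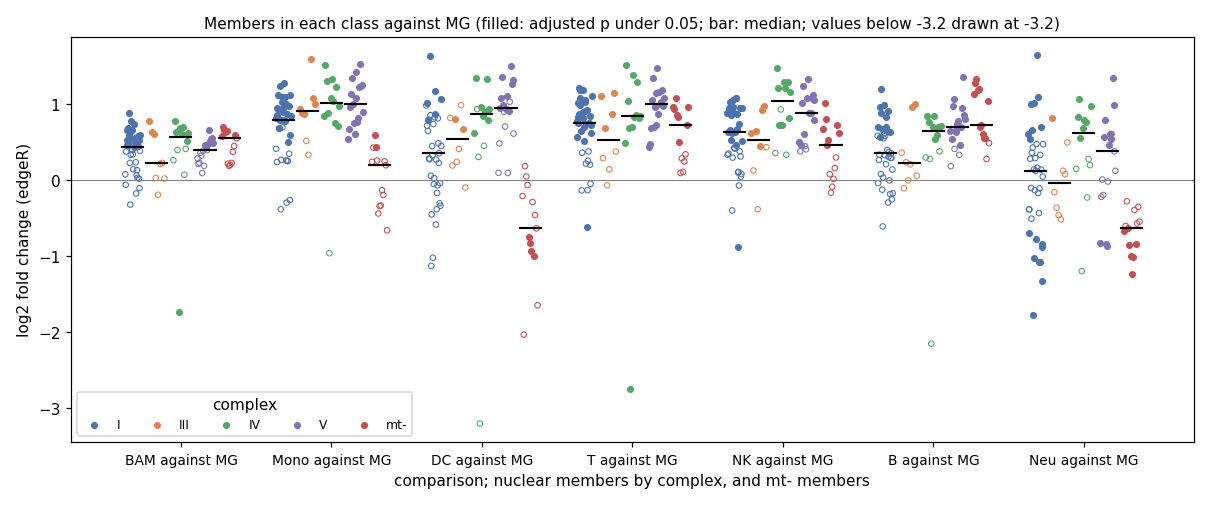
Log2 fold change of each member in 7 classes against MG (edgeR), by complex for nuclear members and in red for mt- members; filled points passed the test at an adjusted p of 0.05 and bars are medians. All 17 complex V members lie above 0 and filled in Mono and T, complex I spreads to both sides in Neu, and in Mono, DC, NK and Neu the median of the mt- members lies below that of each nuclear complex. Cox6a2 in DC, with no UMI in either library fitted, is drawn at the lower edge.

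MG were then divided by marker UMIs into cells with a disease-associated profile (DAM), cycling cells, cells with interferon-response genes, cells with immediate early genes (IEG), and other MG. MG that met the marker rule of more than 1 subset were placed in none of these groups and left out of the subset comparisons. DAM thus stands for cells that met the DAM rule alone, and the same holds for the other subsets. Each subset was compared with other MG of the same library by edgeR with library as a block, on 75 nuclear and 13 mt- members that passed the filter (Cox6b2 among them). In DAM most of the system was higher. Of the nuclear members 66 were higher and 0 lower (background of 12046 genes 20.1% higher, 15.7% lower; median 0.56 against -0.01), and all 13 mt- members were higher (0.50 to 0.70, median 0.59). Complex V was higher in 17 of 17 members and complex IV in 12 of 13. DAM had nuclear sums of 9649, 8619.5, 10813 and 10794 CPM in PBS, Monomer, PFF + VH and PFF + AZD1480, against 7005, 7009, 8372.5 and 7181 in other MG, so that within every library DAM lay above other MG. Cytosolic ribosomal protein genes moved with them, at 82440 to 101340 CPM in DAM and 59192 to 78737 in other MG, and the MG markers stood at 15146 to 18152 against 20872 to 24893, and the part of either in the result was not tested. The DAM sums held 190, 132, 1327 and 647 cells. In cells of 6000 to 9000 UMIs 60 nuclear and 13 mt- members were higher in DAM. Background shares of the subsets are those of the main fits. Counts at limited depth or from DESeq2 are given without one, so they cannot be read as particular to the members.

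Cox6a2 was the member that set DAM apart by size. It encodes the heart and skeletal muscle form of complex IV subunit VIa, and Cox6a1 encodes the common form. In DAM Cox6a2 stood at 79.8, 38.1, 70.4 and 84.1 CPM in PBS, Monomer, PFF + VH and PFF + AZD1480, and in other MG at 4.97, 4.81, 21.1 and 12.4 CPM. Each DAM value lay above every value of other MG. The log2 fold change was 2.81 ± 0.22 (adjusted p 1.71e-10, edgeR), 7-fold, on 915 UMIs in DAM. Cox6a1 stood at 174 CPM in DAM and 113 in other MG, pooled over the libraries. The next members were Ndufa1 (1.07 ± 0.10), a small membrane-arm subunit of complex I encoded on the X chromosome, Ndufa12 (0.84), Atp5g1 (0.82) and Atp5mpl (0.82). The Cox6a2 gene (chr7:128205435-128206387, minus strand, mm10) has Itgad on the opposite strand. Over all MG, Cox6a2 was also the member over 1 CPM whose level differed most between libraries, with 7.05 CPM in the PBS and 5.19 CPM in the Monomer library, 26.0 CPM under PFF + VH and 18.8 CPM with AZD1480, and other MG had PFF + VH highest and PFF + AZD1480 next as well.

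In cycling MG many nuclear members passed the test and the mt- members did not. Of the nuclear members 46 were higher and 0 lower (background 14.8% and 14.4%; median 0.47 against -0.08 over all genes), while 0 of 13 mt- members passed the test in edgeR (3 had an unadjusted p under 0.05, as had 4625 of all 12046 genes, and mt-Nd1, at 0.27 ± 0.10, an adjusted p of 0.052), with a median of 0.05. DESeq2 called 5 mt- members higher in the same sums, and the share of all genes it called is not given here. The ratio of mt- to nuclear UMIs was 0.854 to 1.162 in cycling MG and 1.179 to 1.418 in other MG, with no overlap. Ndufa12 (1.22 ± 0.13), Ndufb11 (1.22), Atp5k (1.01) and Ndufc1 (0.96) followed Cox6b2, the testis form of complex IV subunit VIb, one of the promoters shown. Cox6b2 stood at 15.4, 34.3, 27.2 and 5.60 CPM in cycling MG and at 1.68, 2.44, 2.53 and 1.52 CPM in other MG, in PBS, Monomer, PFF + VH and PFF + AZD1480. All 4 cycling values lay above those of other MG (3.29 ± 0.39, adjusted p 2.02e-07), but they rest on 31 UMIs in all, 4, 4, 22 and 1 by library. The cycling sums held 15 to 251 cells, and in cells of 2000 to 6000 UMIs 26 nuclear members were called.

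IEG-expressing MG showed the reverse pattern. All 13 mt- members were higher than in other MG (0.39 to 0.62, median 0.50), whereas 5 nuclear members were higher and 2 lower of 75 (background 21.9% and 20.8%; median 0.02 against -0.01). The higher nuclear members were the ATP synthase catalytic subunits Atp5b (0.26 ± 0.07) and Atp5a1 (0.20), Cox7a2l (0.20) and the complex III subunits Uqcrfs1 (0.18) and Uqcrc1 (0.18), and the lower were the complex I subunits Ndufs1 (-0.29 ± 0.07) and Ndufs4 (-0.21). mt-Nd3 (0.62 ± 0.10) and mt-Nd5 (0.56) rose most, and the ratio of mt- to nuclear UMIs was 1.678 to 1.820 in IEG cells, above the range of other MG. IEG cells were deeper, with median UMIs of 3656 to 8590 against 1846.5 to 6222. In cells of 2000 to 6000 UMIs 4 mt- members were called, and in cells of 6000 to 9000 UMIs all 13 were. Immediate early genes can be induced when tissue is dissociated, and whether that took part here was not tested. In interferon-response MG 0 of 75 nuclear and 0 of 13 mt- members passed the test in edgeR (background 3.86% and 1.15%). DESeq2 called 6, and again its share of all genes is not given here. An unadjusted p under 0.05 was found for 12 nuclear members, and for 1978 of all 12046 genes. Their median was 0.16 for nuclear and -0.01 for mt- members, against -0.01 over all genes.

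**Figure D3:**
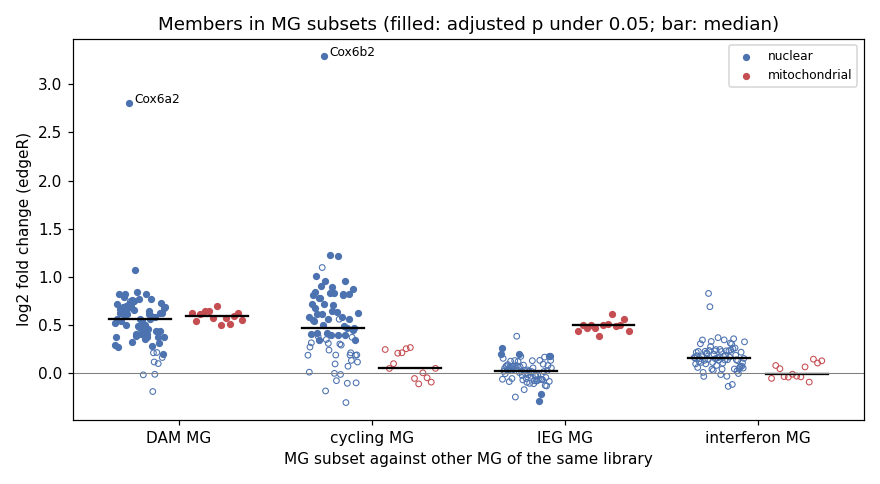
Log2 fold change of each member in 4 MG subsets against other MG (edgeR, library as block); blue points are nuclear members, red points mt- members, filled points passed the test, and bars are medians. Both genomes lie near 0.6 in DAM, nuclear members are higher without mt- members in cycling MG, and mt- members are higher at a nuclear median of 0.02 in IEG MG.

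In most isoform groups 1 form had nearly all UMIs in MG. Cox4i1 had 164496 UMIs in MG and Cox4i2, the form known from lung and oxygen-sensing cells, had 84. Cox8a had 90695, against 9 for Cox8b and 1 for Cox8c, and Ndufa4 had 50925, against 6 for Ndufa4l2, which hypoxia is known to induce. Cox6a1 stood at 116 CPM and Cox6a2 at 14.2, Cox7a2 at 95.5, Cox7a2l at 239.6 and Cox7a1 at 0.626, Cox7b at 86.5 and Cox7b2 at 0.0248, and Cox6b1 at 153 and Cox6b2 at 2.43. Cox6b2 was higher in BAM, at 18.1 CPM on 55 UMIs, which is 7.45 times MG (95% counting interval 5.56 to 9.78). This was not particular to BAM: Cox6b2 stood at 24.12 CPM in DC on 6 UMIs and at 12.85 in Mono on 9. In Neu, NK, T and B it stood at 3.96, 2.16, 0.591 and 0 CPM. Cox6a2 was at 4.27 CPM in BAM on 13 UMIs. In NK it stood at 43.8, 4.05, 53.7 and 7.24 CPM in PBS, Monomer, PFF + VH and PFF + AZD1480, on 39 UMIs in all, above MG of the same library in PBS and PFF + VH and below it in the other two. These pooled ratios carry no test over samples. Atpif1, which encodes the inhibitor that blocks reverse action of ATP synthase, is no member by its symbol. It was higher in BAM than in MG (0.76 ± 0.22, adjusted p 0.00667) and lower in T (-0.85 ± 0.25, adjusted p 0.00462) and NK (-1.08 ± 0.26, adjusted p 0.000815), while 17 of 17 ATP synthase members were higher in T and 14 of 17 in NK.

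Whole libraries were compared in MG by fold alone. The design names 3 replicates each for PBS and Monomer, but they cannot be told apart within the 1 library of each group. A gene counted when its CPM was at least 25% higher or 20% lower (genes of at least 50 CPM: 3455 in all, 64 nuclear and 11 mt- members). Between Monomer and PBS 0 nuclear and 0 mt- members reached that fold (background 1.22%), and the sums stood in ratios of 0.993 and 1.007. PFF + VH against Monomer had 31 nuclear and 6 mt- members higher and 0 lower (background 7.41% higher), with sum ratios of 1.246 and 1.255 and a median ratio over all genes of 0.934. mt-Nd4l rose from 72.1 to 147.6 CPM, mt-Nd3 from 62.9 to 119.4, mt-Nd5 from 150.9 to 240.2 and Ndufa3, a small accessory subunit of complex I, from 51.4 to 81.5. PFF + AZD1480 against PFF + VH had 19 nuclear and 4 mt- members lower and 0 higher (background 4.86% lower), with sum ratios of 0.831 and 0.823 and a median ratio over all genes of 1.057. In MG of 2000 to 6000 UMIs that pair had 1 of 65 nuclear and 1 of 11 mt- members lower, as had 116 of all 3501 genes. The mt- sum turned to the other side there, with sum ratios of 0.946 for nuclear and 1.062 for mt- members. At that depth PFF + VH against Monomer had 35 nuclear and 9 mt- members higher and 0 lower, where 331 of all 3501 genes were higher and 658 lower. The PFF + VH library is the common term of both pairs and the shallow one, with a median of 2438 UMIs in MG against 6759 to 7268, and in it Gm42418, which overlaps an rRNA repeat, stood at 12199 CPM against 6399.5 to 8540. The part of depth in these ratios was not separated from that of the condition.

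The hashtags allow a test of AZD1480 against VH within PFF mice. In MG the nuclear sum was 8678, 8545, 8757 and 8536 CPM in the 4 VH hashtags and 7006, 7199, 6967, 6876.5 and 6705 CPM in the 5 AZD1480 hashtags. The groups did not overlap, at 8629 ± 107 (SD, n = 4) and 6951 ± 181 (SD, n = 5). The mt- sum was 12486, 13743, 13843 and 11668 CPM under VH and 10634, 10159, 10689, 9937 and 9556 under AZD1480, again without overlap. Of the single members, 66 of 81 nuclear and 13 of 13 mt- members had every AZD1480 hashtag below every VH hashtag, as had 5.98% of all genes with a UMI. Cytosolic ribosomal protein genes moved with them, from 79282 to 87026 CPM under VH to 59467 to 66841 under AZD1480, and so did Gm42418 (11102 to 11815 against 8296 to 8575). The median UMIs per MG cell were 2746 to 3189.5 in VH hashtags and 6294.5 to 7165 in AZD1480 hashtags, and the groups also differ in the library they were captured in.

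In the edgeR fit over all genes, from which Cox4i2, Cox7b2, Cox8b, Cox8c and Ndufa4l2 were left out for low counts, 68 of the 76 nuclear members tested were lower in AZD1480 and 0 higher, and all 13 mt- members were lower (background 14.3% of 13693 genes lower). The medians were -0.37 and -0.42 against 0.00 over all genes. Lower were 34 of 37 members of complex I, 7 of 8 of complex III, 12 of 14 of complex IV and 15 of 17 of complex V. Ndufa3 fell most among the nuclear members, from 78.0 to 86.6 CPM under VH to 45.6 to 58.7 under AZD1480 (-0.74 ± 0.08, adjusted p 6.8e-05), followed by Cox6a2 (-0.64 ± 0.10, from 24.3 to 34.0 CPM to 15.4 to 21.7), Cox8a (-0.59 ± 0.05), Ndufa7 (-0.58) and Ndufc1 (-0.53). The abundant Cox4i1 (-0.37), Atp5g2 (-0.47), Cox7c (-0.32) and Cox7a2l (-0.31) were lower too. Several members did not pass. Atp5b, the catalytic β subunit of ATP synthase, stood at 168.2, 177.2, 166.3 and 165.9 CPM under VH and at 182.5, 180.3, 167.8, 169.7 and 166.7 under AZD1480 (-0.02 ± 0.05, adjusted p 0.846, where the CPM means of 169 and 173, before TMM scaling, differ the other way). Atp5a1, its α subunit (-0.03, CPM means 184 and 186), Ndufs1 (-0.07), a core subunit of complex I, Uqcrc1 (-0.13) and Ndufs4 (-0.13) also stayed above the threshold, as did the rare Cox6b2 (-0.53 ± 0.21, adjusted p 0.0832) and Cox7a1 (-0.52 ± 0.37). Other core subunits of complex I were lower, such as Ndufs3 (-0.33), Ndufs8 (-0.26) and Ndufv2 (-0.24).

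The mt- members fell by unequal amounts. mt-Nd4l stood at 135.5, 147.6, 164.0 and 131.7 CPM under VH and at 85.4, 84.0, 83.2, 80.6 and 77.8 under AZD1480 (-0.87 ± 0.07, adjusted p 3.1e-05). mt-Atp8 (-0.88 ± 0.09) and mt-Nd6 (-0.84 ± 0.08), the lowest mt- genes by count, and mt-Nd3 (-0.66) and mt-Nd5 (-0.66) also changed by more than the median. So did the abundant mt-Co1 (-0.49), and mt-Nd4 (-0.42) stood at the median. The abundant mt-Co2 (-0.40), mt-Co3 (-0.36), mt-Atp6 (-0.35), mt-Nd1 (-0.35), mt-Cytb (-0.33) and mt-Nd2 (-0.32) changed less. mt-Nd6 is the sole protein gene on the other mitochondrial strand.

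**Figure D4:**
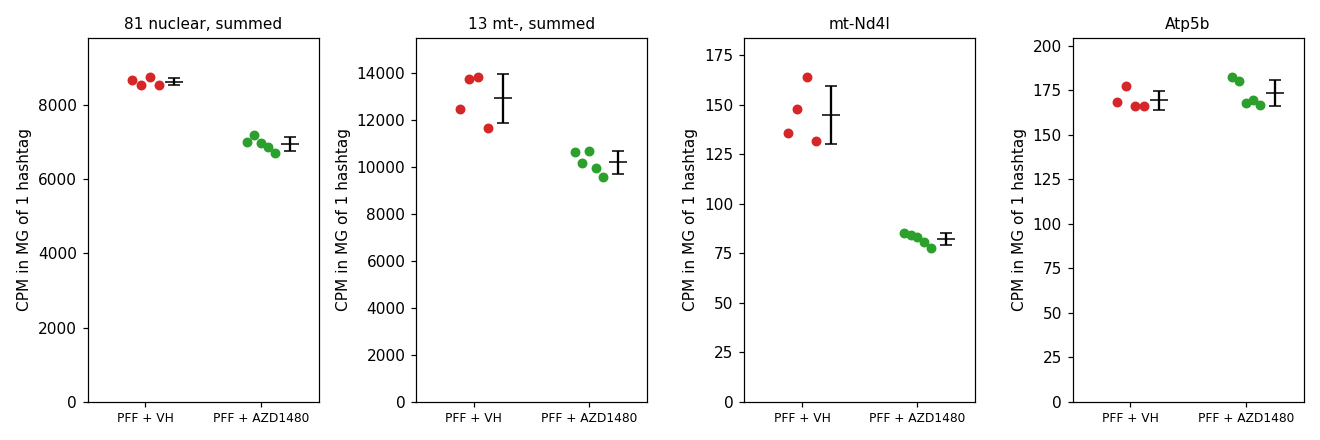
CPM in MG of each hashtag (points) with the mean and SD (black), for the nuclear sum, the mt- sum, mt-Nd4l and Atp5b. The VH and AZD1480 hashtags do not overlap in the first 3 panels, and Atp5b overlaps, at 165.9 to 177.2 against 166.7 to 182.5 CPM.

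The same comparison was made in MG of limited depth. The share of all genes called in these fits is not given here, so a change in the count of members cannot be read as particular to them. In MG of 2000 to 6000 UMIs the test left 12 of 75 nuclear and 4 of 13 mt- members lower (medians -0.16 and -0.10), and mt-Nd1, mt-Nd2, mt-Atp6, mt-Co3 and mt-Cytb changed sign, to 0.01 to 0.05. In MG of 6000 to 9000 UMIs 63 of 74 nuclear and 13 of 13 mt- members were lower (medians -0.41 and -0.64), and in MG of no subset 62 of 75 and 13. Across bins of depth the members were nearly level in PFF + VH, with 8726 CPM for the nuclear sum and 12562 for the mt- sum at 2000 to 4000 UMIs and 8311 and 12476 at 6000 to 9000. In PFF + AZD1480 they stood at 9946 and 21157 CPM at 2000 to 4000 UMIs, where Malat1, a nuclear-retained RNA, was at 14987 CPM, and at 6643 and 8837 at 6000 to 9000. In PBS and Monomer the bin of 1000 to 2000 UMIs had 2764 and 2986 CPM of nuclear and 14680 and 15088 CPM of mt- members. Cells of equal UMI number thus differed between the libraries in their share of mt- RNA.

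**Figure D5:**
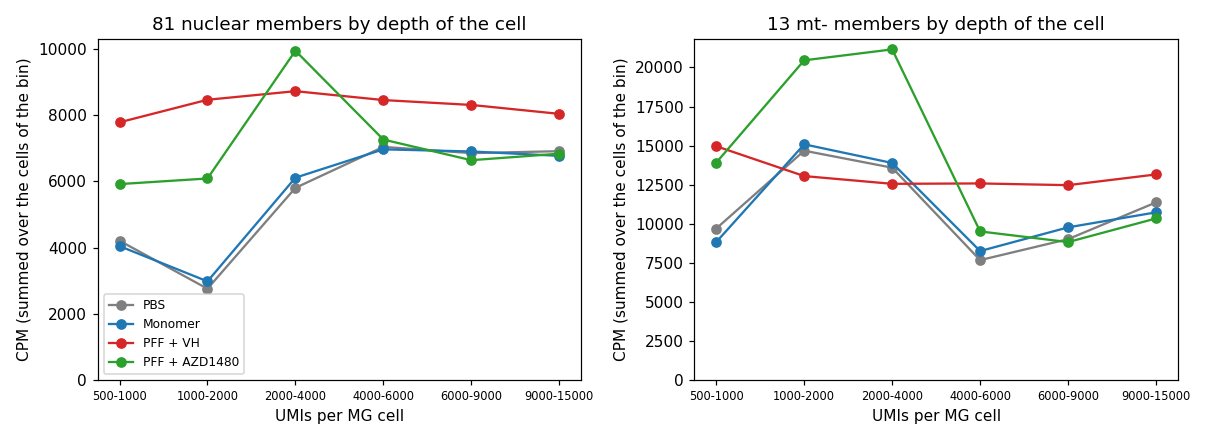
Summed CPM of nuclear (left) and mt- members (right) in MG by UMIs per cell, for the 4 libraries. PFF + VH is nearly level above 1000 UMIs, and the other libraries have their mt- peak below 4000 UMIs, with 21157 CPM in PFF + AZD1480 at 2000 to 4000.

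In MM, the macrophages and monocytes (BAM, Mono and DC joined), 0 of 64 nuclear and 0 of 11 mt- members passed the edgeR test of AZD1480 against VH (background 0.0341% of 2933 genes), and DESeq2 called 0. An unadjusted p under 0.05 was found for 6 nuclear and 0 mt- members, and for 259 of all 2933 genes. The nuclear sum was 10593 to 12661 CPM under VH and 9196 to 11407 under AZD1480, and the mt- sum 10708 to 17571 and 12142 to 18957, both overlapping. The medians were -0.14 for nuclear and 0.09 for mt- members. The hashtags held 10 to 68 MM cells each. The mix of joined classes differed too: the PFF + VH library held 179 BAM, 38 Mono and 2 DC, and PFF + AZD1480 207, 19 and 6. The part of this mix in the MM values and their interaction was not tested. In T and NK cells 0 of 47 nuclear and 0 of 10 mt- members passed (background 0.234% of 1282 genes), DESeq2 called 0, and hashtags held 3 to 30 cells. There 1 nuclear member had an unadjusted p under 0.05, as had 113 of all 1282 genes. The PFF + VH library held 44 T and 78 NK cells and PFF + AZD1480 62 and 20, and the part of this mix was not tested. In simulated counts with 200 genes changed 2-fold, 56.3% of the changed genes tested were found in MM and 54.3% in T and NK, against 89.8% in MG. The lack of calls outside MG thus does not show that the members were unchanged there. In a fit over MM and MG together the treatment difference was unlike in mt-Nd4l (1.32 ± 0.32 on the log2 scale, adjusted p 0.0127; background 0.362%), the 1 member of 89 to pass the test. All 13 mt- members had an interaction above 0 (0.18 to 1.32, median 0.51 against 0.02 over all genes), and 9 of them and 3 of 76 nuclear members had an unadjusted p under 0.05, as had 904 of all 12979 genes. mt-Nd4l stood at 103.6, 168.2, 57.4 and 80.9 CPM in MM under VH and at 113.8, 204.1, 190.1, 131.6 and 140.1 under AZD1480, which overlap. Leaving out VH hashtag 1, 3 or 4 or AZD1480 hashtag 2 removed that call. For T and NK against MG 0 of 89 members were called (background 0.337%), and 1 nuclear member had an unadjusted p under 0.05, as had 749 of all 12479 genes.

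Neighbouring pathways were counted in the same fits. In MG under AZD1480, 43 of 78 genes of the mitochondrial ribosome, which makes the mt- proteins, were lower (55.1% against 14.3%) and 0 higher (median -0.25), with Mrpl52 at -0.73 ± 0.05 and Mrpl40 at -0.51. Of 47 assembly factors 20 were lower (42.6%) and 1 higher (median -0.13), led by Lyrm7 (-0.78 ± 0.26) and Ndufaf8 (-0.54), and of 18 genes of the tricarboxylic acid cycle 4 were lower (22.2%) and 0 higher, among them Suclg1 (-0.21) and Mdh2 (-0.20). Of complex II, the sole complex encoded by nuclear genes alone, Sdhd (-0.22) and Sdhb (-0.21) were lower and the other two of 4 did not pass. Cycs, cytochrome c, was lower (-0.36 ± 0.06), as were the ADP/ATP carrier Slc25a4 (-0.38) and the phosphate carrier Slc25a3 (-0.23), and Cyc1, cytochrome c1, did not pass. Not all lists followed. Of 7 coactivators and transcription factors 0 were lower and 0 higher (median 0.09). Of 13 genes of mitochondrial DNA transcription and replication 3 were lower (23.1%) and 1 higher (7.69%). In DAM 47 of 78 mitochondrial ribosomal genes were higher (60.3% against 20.1%) and 0 lower (median 0.34), with Mrpl54 (0.93) and Mrpl12 (0.74), 14 of 46 assembly factors were higher (30.4%) and 1 lower, and the 4 carriers tested of 6 in the list were higher, of which Ucp2, a carrier of the uncoupling protein family, rose by 0.70 ± 0.08. Of 7 coactivators and transcription factors 1 was higher in DAM (14.3%, below the 20.1% of all genes), Ppargc1b (0.83 ± 0.18). In IEG cells 17 of 46 assembly factors were lower (37.0% against 20.8%) and 3 higher, with Timmdc1 (-0.71) and Ndufaf5 (-0.67), and 3 of 7 coactivators and transcription factors were higher (42.9% against 21.9%), of which Gabpb1, a partner of the ETS factor that binds promoters of respiratory genes, rose by 1.45 ± 0.09. As in DAM, the 4 carriers tested were higher in IEG cells (median 0.38), with Ucp2 at 0.65 ± 0.08 and Slc25a5 at 0.38 ± 0.09. In Neu 19 of 68 mitochondrial ribosomal genes were lower (27.9%, below the 32.4% of all genes) and 5 higher (7.35% against 21.3%), with Mrps6 (-2.61) and Mrpl33 (3.79) at the extremes, Slc25a4 fell by 2.42 ± 0.38 and Ucp2 rose by 1.29 ± 0.23.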

How the data were processed

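The values used were counts: whole UMIs of each gene in each cell. The authors obtained them with Cell Ranger (release 7.0.1 per the file headers) on mm10 and deposited them as filtered matrices, not normalized, with the antibody counts of hashtags as further features of 2 of these matrices. Members, gene lists and comparisons were chosen with earlier results of these data known. Cells of 500 to 15000 UMIs, 250 to 5000 genes and at most 10% mt- UMIs were kept. A cell was given another class than MG with UMIs of at least 3 of its markers and more UMIs of them than of MG markers, and MG with UMIs of at least 5 of 12 MG markers and of at most 2 markers of any other class. Thresholds for classes and subsets were set after the counts had been seen. Hashtags were called with HTODemux in Seurat 5.3.0 on values normalized across cells, and MULTIseqDemux was an alternative. Counts were summed per class and library, or class and hashtag (at least 10 cells in library sums), and tested with edgeR 4.0.16 (quasi-likelihood, TMM, filterByExpr, Benjamini-Hochberg over all genes tested, threshold 0.05). DESeq2 1.42.0 was an alternative. Intervals are 95% Poisson and cover counting error only. The scripts were tested on simulated counts with 200 genes changed 2-fold. For AZD1480 against VH, 89.8% of the changed genes tested were found in MG, 56.3% in MM and 54.3% in T and NK. Against MG, 86.2% were found in BAM, 81.8% in NK, 75.3% in T, 54.5% in Mono, 44% in B, 38% in Neu and 6.8% in DC. Counts of called members therefore cannot be compared between classes as they stand. Nothing in the labels says that hashtags mark separate animals, so p-values may measure technical spread. Named genes were all mt- members, the 5 nuclear members of largest change per direction and comparison, the isoform groups, Atpif1, the 5 nuclear members highest in MG and the 2 largest of each pathway list. Members that missed the test or changed most between libraries were named after their values were seen. The result of 1 member is not reported here. Promoters are from RefSeq, and protein sequences were not used here.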

Additional observations from a re-analysis of the deposited data

Results flagged for a closer look

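These values were set apart from the others of their group or differed between cell classes. Of 48 groups of 4 or 5 hashtags examined, 4 held a value that stood apart by Dixon's criterion, and chance gives about 1 in 20. Ndufa3 in MG was lowest in VH hashtag 2, at 78.0 CPM, where the other VH hashtags lay at 85.6 to 86.6, and all 4 lay above the AZD1480 hashtags. Ndufc1 in MG was lowest in AZD1480 hashtag 5, at 37.5 CPM against 40.5 to 41.5. mt-Atp8 in MG was lowest in the same hashtag, at 24.9 CPM against 29.3 to 30.5, and this hashtag held the fewest MG cells of its library, 1158. The nuclear sum in MM was highest in VH hashtag 4, at 12660 CPM against 10590 to 10910, on 29 cells. mt-Nd4l differed between MM and MG in its AZD1480 difference, by 1.32 on the log2 scale (adjusted p 0.0127, edgeR interaction), with 0.43 ± 0.30 in MM and -0.87 ± 0.07 in MG.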

How the results depend on the processing

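Of the recomputed counts of called members 201 stayed within 1.5 times the main count and 26 did not, and of the recomputed changes of named genes 1821 kept their call, 139 lost it and 5 changed sign. RLE scaling, DESeq2, no filter on the mt- share, and leaving out Gm42418, AY036118 and Malat1 changed the direction of no named gene. In cells of 2000 to 6000 UMIs the called members numbered 16 in place of 81 for AZD1480 in MG, 18 in place of 43 for BAM, 29 in place of 47 for B, 26 in place of 46 for cycling, 7 in place of 20 for IEG, 0 in place of 1 for the MM and MG interaction and 2 in place of 23 for PFF + AZD1480 against PFF + VH as libraries. There the AZD1480 change in MG of mt-Nd1 was 0.0137, of mt-Nd2 0.0449, of mt-Atp6 0.0339, of mt-Co3 0.043 and of mt-Cytb 0.0456. With no filter on low counts BAM had 22 called members, DC 11 in place of 30, B 20 and interferon 1 in place of 0. Interferon had 4 with RLE scaling, 6 with DESeq2 and 6 with 1 more subset marker. Monomer against PBS had 1 in place of 0 among genes of at least 10 CPM. The cause of these shifts was not tested. Shares of all genes called in the refitted tests are not given here, so a lower count cannot be read as particular to the members.

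Same-numbered hashtags of VH and AZD1480 did not deviate together (correlations of -0.055 to 0.088 over genes). Such correlations include counting noise and cannot decide whether a shared number marks a pairing, and the labels name none. With hashtag number as a replicate block, 79 members were called in MG (81 without it), and with hashtag sums and the hashtag as replicate block within libraries 23 were called in BAM, 30 in place of 70 in T, 10 in B and 23 in place of 42 in Neu, where fewer libraries and fewer cells enter. Leaving out each hashtag in turn gave 78 to 83 for AZD1480 in MG, 0 in MM and in T and NK, and 0 to 1 for the interaction in MM. Leaving out each library gave 21 to 49 in BAM (lowest without Monomer), 59 to 65 in Mono, 28 to 29 in DC (where only the PFF libraries, which hold no DC sum, could be left out), 67 to 70 in T, 57 to 61 in NK, 37 to 48 in B, 26 to 44 in Neu (lowest without PFF + AZD1480), 40 to 47 in cycling, 70 to 79 in DAM, 0 to 1 in interferon (1 without PBS) and 15 to 22 in IEG. The cycling subset could not be fitted in cells of 6000 to 9000 UMIs. The 6000 to 9000 UMI range, MG of no subset, and the interaction's alternatives were chosen after seeing the data. The MM and T and NK fits rest on 3 to 68 cells per hashtag, and the PBS and Monomer groups on 1 library each.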

Other observations

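Pathways beside the respiratory chain were counted in the cell classes too, with the share of all genes tested beside each. T cells had 33 of 68 genes of the mitochondrial ribosome higher than MG (48.5% against 26.6%) and 1 lower (median 0.55), led by Mrpl33 (1.87 ± 0.22) and Mrps16 (1.61 ± 0.18), and 9 of 26 assembly factors higher (34.6%) and 1 lower, with Cox11 (1.51) and Cox17 (1.21). Idh2, the mitochondrial isocitrate dehydrogenase, was lower in T (-2.23 ± 0.36) and in Neu (-2.35 ± 0.49), while Pdha1, a subunit of pyruvate dehydrogenase, was higher in T (1.52 ± 0.23). In Mono 26 of 68 mitochondrial ribosomal genes were higher (38.2% against 22.5%) and 0 lower (median 0.52), in BAM 19 (27.9% against 16.2%) and 0, and in NK 23 (33.8% against 24.4%) and 1. In B 16 were higher (23.5%, near the 19.3% of all genes) and 1 lower, and in DC 6 (8.82%, below the 10.9% of all genes) and 0.

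MG with under 0.2% mt- UMIs numbered 1913 in the PBS and 1780 in the Monomer library (14.6% and 13.1% of their MG), and 727 under PFF + VH against 1048 with AZD1480 (2.37% and 9.23%). The part of these cells in the higher mt- sum of PFF + VH was not tested. In cycling MG Malat1 stood at 6824 to 15877 CPM against 18254 to 20566 in other MG, with the lowest value in PFF + AZD1480, the library whose cycling MG had the highest nuclear sum of members (13553 CPM). In MM Atpif1 had a treatment difference of 0.77 ± 0.33 that did not pass the test (adjusted p 0.49, edgeR), against -0.23 ± 0.06 in MG (adjusted p 0.0154).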
